A study of Mus musculus with 65 samples.

Results

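Mammary glands of Tgfb1 heterozygotes were compared with those of wild-type mice 4 weeks after a dose of 10 cGy of ionizing radiation. The comparison used 6 arrays, 3 of each genotype, out of 17 gland arrays and 65 arrays in the series, and they were chosen by their titles alone. The heterozygotes, TGFb1-HT in the labels, and the wild-type mice were Balb/c littermates, 10 weeks old when they entered the study. All had been injected with estrogen and progesterone shortly before treatment to bring their cycles into step, so both genotypes share that exposure. The other gland groups, used to place the 4-week values, were sham-treated glands taken at 1 week (3 heterozygous and 3 wild-type arrays) and glands taken 1 week after 10 cGy (2 heterozygous and 3 wild-type arrays). The tissue extracted was the hind part of an inguinal gland whose lymph node had been taken out. The labels used here do not describe the Tgfb1 allele, nor whether the numbered repeats were separate mice, so p-values measure the spread between these arrays, which may be partly technical. No sham gland of 4 weeks was used, so dose and time cannot be told apart in a comparison of 4-week with sham glands.

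TGF-beta1, the product of Tgfb1, is secreted in a latent form and is held in the matrix by latent TGF-beta binding proteins until it is activated. It then signals through a pair of receptor kinases to Smad proteins, which restrain epithelial growth, raise collagen and other matrix genes and dampen immune cells. In the mammary gland it limits the response of the ducts to ovarian hormones, and radiation is one known activator of the latent form. The study asked whether low-dose radiation acts on mammary tissue through this factor.

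Of 12945 genes tested across the whole array, 2 (0.0154%) passed at 4 weeks, Dusp1 (higher in heterozygotes) and Capn6 (lower), at an adjusted p under 0.05 in limma, a linear model with shared variance estimates. The 250 bases before the RefSeq start of each are given here (build GRCm38.p6, 5′ to 3′ on the strand of the gene), together with those of Maip1 and Tyw5, neighbouring genes that were both higher in heterozygotes. Capitals mark motifs searched for on both strands, namely the cyclic AMP response element TGACGTCA, the E-box CACGTG and the CCAAT box, none of which overlap here.
Dusp1 (chr17:26508473-26508722, minus strand): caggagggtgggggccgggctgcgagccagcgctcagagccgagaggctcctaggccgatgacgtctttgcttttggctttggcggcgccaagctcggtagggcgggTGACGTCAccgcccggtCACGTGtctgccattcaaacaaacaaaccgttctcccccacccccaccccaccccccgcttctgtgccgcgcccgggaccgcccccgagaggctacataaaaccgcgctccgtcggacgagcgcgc
Capn6 (chrX:143827413-143827662, minus strand): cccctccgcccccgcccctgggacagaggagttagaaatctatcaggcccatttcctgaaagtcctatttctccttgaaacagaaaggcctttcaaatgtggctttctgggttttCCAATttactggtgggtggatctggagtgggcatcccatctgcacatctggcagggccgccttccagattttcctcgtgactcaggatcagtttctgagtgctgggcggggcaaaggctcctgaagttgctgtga
Maip1 (chr1:57406016-57406265, plus strand): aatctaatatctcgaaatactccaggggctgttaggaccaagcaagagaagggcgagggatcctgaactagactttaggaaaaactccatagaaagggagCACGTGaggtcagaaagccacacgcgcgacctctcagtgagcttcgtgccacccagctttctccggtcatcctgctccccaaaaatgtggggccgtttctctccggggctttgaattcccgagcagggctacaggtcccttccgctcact
Tyw5 (chr1:57406675-57406924, minus strand): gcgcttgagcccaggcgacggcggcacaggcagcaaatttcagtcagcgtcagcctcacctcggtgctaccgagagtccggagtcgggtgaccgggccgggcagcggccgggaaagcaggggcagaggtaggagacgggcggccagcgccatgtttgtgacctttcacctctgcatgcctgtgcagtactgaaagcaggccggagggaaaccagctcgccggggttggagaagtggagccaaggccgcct
The Dusp1 window held a cyclic AMP response element starting 143 bases before the start and an E-box starting at 126 bases. The Capn6 window held a CCAAT box starting at 135 bases and the Maip1 window an E-box starting at 150 bases, while these letters were not found in the Tyw5 window. Of all 32851 mouse windows of this length, 1.55% held the cyclic AMP response element, 6.02% the E-box and 33.8% the CCAAT box. A match is a run of letters and not a measured binding site.

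Levels below are log2 of the deposited intensity, and differences are heterozygote minus wild type on that scale with the standard error (SE) from limma. Array medians were 4.86 to 4.93, so a level near 5 is dim. The number of arrays limits the precision. Correlations between arrays at 4 weeks were 0.964 to 0.987 within a genotype and 0.961 to 0.988 between genotypes. The labelled tissue carried its usual epithelial and fat markers in all 6 arrays, with the luminal keratin Krt8 between 11.74 and 12.84 and adiponectin (Adipoq) between 13.22 and 13.59. Skeletal muscle RNA was present as well: the mean of 19 muscle genes was 4.88, 5.15 and 4.79 in heterozygotes, against 4.36, 6.79 and 9.40 in wild-type arrays 1, 2 and 3. Wild-type arrays 2 and 3 thus stood apart, and the values without them are given for the lists and genes that moved most. Muscle RNA was uneven in the other gland groups too. In sham glands the muscle gene Ckm was at 7.58, 4.51 and 4.79 in heterozygotes, against 4.44, 12.0 and 9.04 in wild type. At 1 week after 10 cGy it was at 4.98 and 8.06 in heterozygotes, against 4.78, 4.44 and 9.72 in wild type. At 4 weeks the mean of 11 tested B cell and lymph node genes was 5.30 to 5.65 in heterozygotes and 5.05 to 5.72 in wild-type glands, with no array of either group standing out. In these bulk samples fewer cells of a type and less RNA per cell cannot be told apart.

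At an unadjusted p under 0.05 there were 310 genes higher in heterozygotes (2.39% of those tested) and 461 lower (3.56%), 771 in all where 647 were expected by chance. The 3 heterozygous values lay entirely above the wild-type values for 650 genes (5.02%) and entirely below them for 956 (7.39%). The median difference over all tested genes was -0.0044, and 48.9% of them were higher.

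Tgfb1 itself, the targeted gene, was at 4.30, 4.65 and 4.31 in heterozygotes, against 4.90, 5.31 and 4.58 in wild-type glands. The highest heterozygous array lay just above the lowest wild-type array, and all 6 values were close to the array median. The difference was -0.51 (SE 0.22), which did not pass limma (unadjusted p = 0.0330, adjusted p = 0.828). It was -0.68 in sham glands and -1.32 at 1 week after 10 cGy. The other Tgfb1 probe set averaged 3.89 over the glands, with a difference of -0.17.

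No tested member of the TGF-beta ligand, receptor and latency list passed limma, Tgfb1 included. Of 18 tested ligands, receptors and latency proteins 7 were higher and 11 lower, with a median difference of -0.02, against -0.0044 and a share of 48.9% higher over all genes. Tgfb1 was the single member with an unadjusted p under 0.05, where 3.56% of all genes were lower at that p. Tgfb2 and Tgfb3, the sister ligands, were at 0.02 (SE 0.27) and 0.05 (SE 0.22), and the receptors Tgfbr1 and Tgfbr2 at -0.13 (SE 0.13) and 0.11 (SE 0.22). Ltbp4, a latent TGF-beta binding protein, was at 6.28, 6.60 and 6.38 in heterozygotes, against 5.90, 6.09 and 6.22 in wild-type glands. Those groups did not overlap, and the difference of 0.35 (SE 0.20) did not pass limma (unadjusted p = 0.107, adjusted p = 0.828). Ltbp3, a second binding protein, had its 3 heterozygous arrays below the wild-type arrays, with a difference of -0.24 (SE 0.16).

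Among Smads, their feedback regulators and the BMP arm, 4 of 22 members were higher and 18 lower, with a median of -0.13. That median was -0.03 without wild-type arrays 2 and 3. Tgif1, a repressor that binds Smad2 complexes, was at 7.91, 7.63 and 7.82 in heterozygotes and at 8.11, 8.28 and 8.43 in wild-type glands, a difference of -0.49 (SE 0.23, unadjusted p = 0.0488). Smad7, the inhibitory Smad that TGF-beta itself induces, was at -0.18 (SE 0.15). Of 20 tested genes known to be induced by TGF-beta, 7 were higher and 13 lower, with a median of -0.15. Leaving out wild-type arrays 2 and 3 gave 10 higher and 10 lower, with a median of -0.01. Their members included the matrix proteins Postn at -0.13 (SE 0.15) and Fn1 at -0.22 (SE 0.23), and the secreted growth regulator Ccn2 at -0.16 (SE 0.59). Junb was the single member of that list with an unadjusted p under 0.05, where 3.56% of all genes were lower at that p.

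Dusp1, a phosphatase that switches off MAP kinases and is induced by stress and by glucocorticoids, was higher in heterozygotes. Its level was 10.11, 10.17 and 10.10 in heterozygotes, against 8.93, 9.05 and 8.98 in wild-type glands. The groups were separated by a wide margin, and the 3 heterozygous arrays were also above each of the other 11 gland arrays, which ran from 8.55 to 9.26. Dusp1 rose by 1.14 (SE 0.16), 2.2-fold, with a limma adjusted p = 0.0470, whereas the genotype difference was 0.09 in sham glands and 0.10 at 1 week. The size of the difference was stable, at 1.11 to 1.17 when any 1 of the 6 arrays was left out, but the adjusted p was then 0.0612 to 0.191, so the call was lost in 6 of 6 such fits. The difference was 1.20 without wild-type arrays 2 and 3, a fit with 1 wild-type array left (adjusted p = 0.560).

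Capn6, a calpain family member without protease activity, was lower in heterozygotes. It was at 6.58, 6.06 and 6.03 in heterozygotes, against 7.22, 7.95 and 7.46 in wild-type glands. Here it was the wild-type arrays that stood apart, since the other 14 gland arrays ran from 5.69 to 6.84. Capn6 fell by 1.32 (SE 0.19), 2.5-fold, with a limma adjusted p = 0.0470, against -0.37 in sham glands and -0.49 at 1 week. The call was lost in 5 of 6 fits without 1 array, with 0.234 as the highest adjusted p (heterozygous array 2 left out), and was kept without heterozygous array 1 (adjusted p = 0.0146). Without wild-type arrays 2 and 3 the difference was -1.0 (adjusted p = 0.788), and a second Capn6 probe set, with a mean of 3.86, differed by -0.42.

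**Figure D1:**
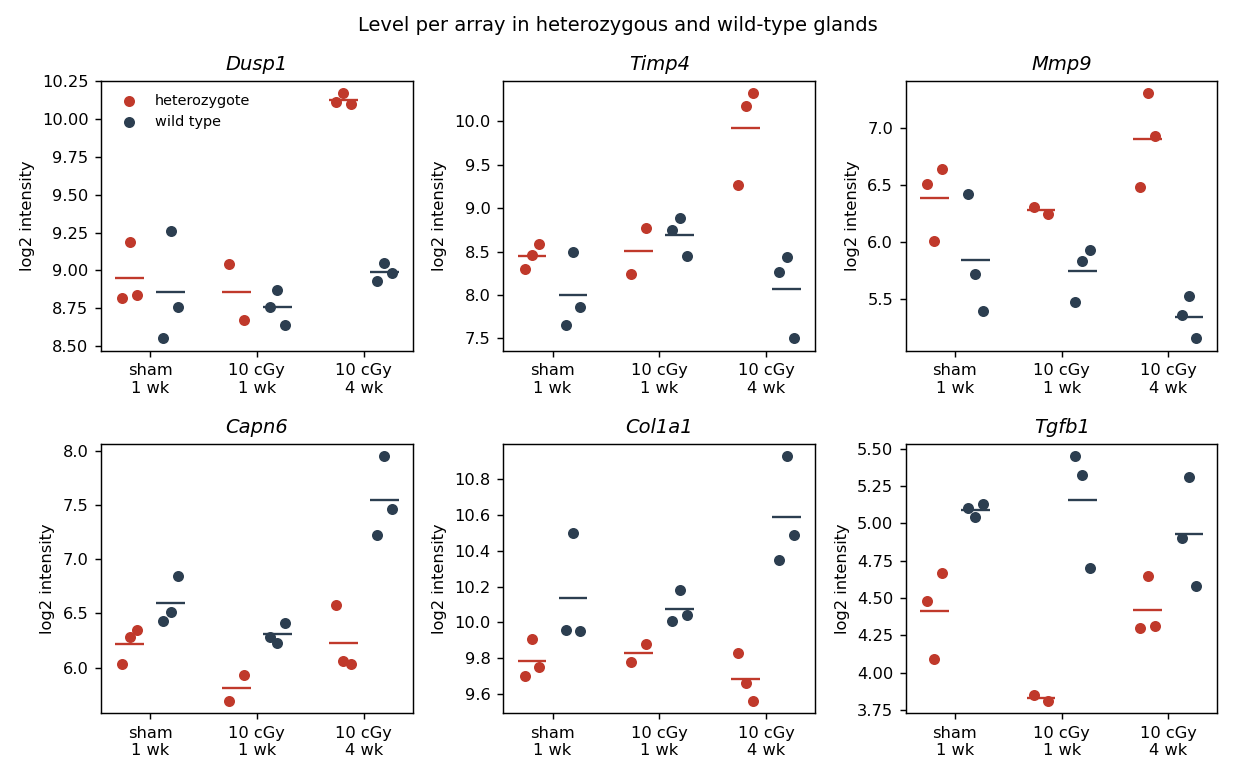
Level of 6 genes (vertical axis, log2 intensity) in each gland array, with heterozygotes left of wild type in each condition and short lines at group means. Dusp1 in the 3 heterozygous 4-week arrays sits at 10.10 to 10.17, above all other glands, and Capn6 in the 3 wild-type 4-week arrays sits at 7.22 to 7.95, above all other glands.

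The genes next in order came close to the threshold without passing it. Timp4, an inhibitor of matrix metalloproteinases, was at 9.27, 10.17 and 10.32 in heterozygotes, against 8.26, 8.44 and 7.50 in wild-type glands. The groups did not overlap, and the difference was 1.85 (SE 0.30, limma adjusted p = 0.0756). Both Timp4 probe sets gave nearly the same value, 1.85 and 1.86. Mmp9, a gelatinase abundant in neutrophils, was at 6.48, 7.31 and 6.93 in heterozygotes and at 5.36, 5.52 and 5.15 in wild-type glands. The Mmp9 difference of 1.56 (SE 0.26, limma adjusted p = 0.0764) was matched by 1.61 in its second probe set, and was 0.55 in sham glands and 0.54 at 1 week. In the list of 19 matrix proteases and inhibitors, 13 members were higher and 6 lower, and the median was 0.08. Timp4 and Mmp9 were the 2 members with an unadjusted p under 0.05, where 2.39% of all genes were higher at that p. The lowest member was the macrophage elastase Mmp12 at -0.85, and the stromal members lay near 0, such as the gelatinase Mmp2 at 0.08 (SE 0.27), Timp2 at 0.04 (SE 0.28) and the membrane protease Mmp14 at -0.14 (SE 0.19).

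Prtn3, a serine protease of neutrophil granules, was at 10.03, 10.03 and 9.61 in heterozygotes, against 8.93, 8.74 and 7.63 in wild-type glands. All 3 heterozygous arrays were above the wild-type arrays, and the difference was 1.46 (SE 0.27, limma adjusted p = 0.113), against 0.63 in sham glands and 0.70 at 1 week. It was 0.96 without wild-type arrays 2 and 3. Depp1, a gene induced by progesterone and by FoxO factors, was at 8.72, 8.96 and 8.18 in heterozygotes and at 7.31, 6.98 and 7.17 in wild-type glands. That difference of 1.47 (SE 0.28, limma adjusted p = 0.131) stood beside -0.20 in sham glands and -0.88 at 1 week, so its sign was not the same in the 3 conditions. Apold1, a gene of activated endothelium, was at 1.21 (SE 0.22) and Tcf15, a basic helix-loop-helix factor, at 0.82 (SE 0.16). Rasgrf2, an exchange factor for Ras, was at 0.69 (SE 0.14).

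A second set of genes was higher in heterozygotes in every condition. Tyw5, which modifies transfer RNA, was at 7.98, 7.62 and 7.67 in heterozygotes, against 7.25, 7.02 and 7.15 in wild-type glands. Maip1, a mitochondrial matrix protein, was at 8.87, 8.46 and 8.53 in heterozygotes, against 7.65, 7.83 and 7.99 in wild-type glands. Neither gene overlapped between the groups. Tyw5 was at 0.61 (SE 0.12) at 4 weeks, 0.51 in sham glands and 0.67 at 1 week, and Maip1 at 0.80 (SE 0.14), 0.53 and 0.62 in the same order. The 2 genes, whose upstream windows are printed above, are immediate neighbours on chromosome 1 with no coding gene between them and are read in opposite directions. A second Maip1 probe set, at a mean of 3.11, differed by 0.02.

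Akr1cl, an aldo-keto reductase family member, was at 10.07, 10.08 and 10.24 in heterozygotes, against 7.86, 8.59 and 4.70 in wild-type glands. The heterozygous arrays lay close together, whereas wild-type array 3, the richest in muscle RNA of the 6, was far below the other two. The difference was 3.08 (SE 0.65, limma adjusted p = 0.239). It was 1.91 without wild-type array 3 (adjusted p = 0.0262) and 2.27 without wild-type arrays 2 and 3 (adjusted p = 0.0224), both past the threshold, and the part of muscle RNA in this was not tested. The difference was 2.31 in sham glands and 1.44 at 1 week, and all 8 heterozygous gland arrays, at 8.63 to 10.24, were above all 9 wild-type arrays. Prr32, a proline-rich protein, was at 5.71, 5.72 and 6.71 in heterozygotes and at 4.37, 4.51 and 4.65 in wild-type glands, a difference of 1.54 (SE 0.25, limma adjusted p = 0.0756), with 0.70 in sham glands and 0.97 at 1 week. Of the 24 genes with the smallest p, 12 in each direction, 5 lay on chromosome 1, where 5.75% of tested genes lie. These were Tyw5, Maip1 and Akr1cl, which were higher in heterozygotes, and Klf7 and Igfbp2, which were lower. There are 54 coding genes between Maip1 and Klf7, 5 between Klf7 and Akr1cl and 34 between Akr1cl and Igfbp2.

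Of the genes lower in heterozygotes, Col1a1, a chain of type I collagen, came next after Capn6. It was at 9.83, 9.66 and 9.56 in heterozygotes, against 10.35, 10.93 and 10.49 in wild-type glands. The groups did not overlap, and the difference was -0.90 (SE 0.16, limma adjusted p = 0.110), with -0.50 in a second probe set. Col1a2, the partner chain, was at -0.25 (SE 0.10, unadjusted p = 0.0234), the basement membrane chain Col4a1 at -0.23 (SE 0.10) and Col3a1 at -0.08 (SE 0.08). In the collagen and matrix list 7 of 30 members were higher and 23 lower, with a median of -0.22. Of the 30, 3 were lower at an unadjusted p under 0.05, as were 3.56% of all genes. Without wild-type arrays 2 and 3 the median was 0.05, with 16 members higher, while Col1a1 was at -0.66. Col7a1, the collagen of anchoring fibrils under epithelia, was at -1.0 (SE 0.22, limma adjusted p = 0.298), from 7.61, 7.31 and 7.46 in heterozygotes and 8.38, 8.33 and 8.68 in wild-type glands.

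Igfbp2, a binding protein for insulin-like growth factors, was at 5.95, 6.30 and 6.71 in heterozygotes, against 7.34, 7.93 and 8.32 in wild-type glands. No heterozygous array reached the wild-type range, and the difference of -1.54 (SE 0.32, limma adjusted p = 0.223) stood beside -0.08 in sham glands and -0.07 at 1 week. It was -1.01 without wild-type arrays 2 and 3. Igf2r, the receptor that clears IGF2, was at -0.27 (SE 0.12), and the list of 14 insulin-like growth factor genes had a median of -0.03. Mup10, a major urinary protein from a family of near-identical genes whose probes may share signal, was at -2.10 (SE 0.44, limma adjusted p = 0.239). Its levels were 4.96, 3.69 and 4.75 in heterozygotes, which is dim, against 6.52, 5.87 and 7.3 in wild-type glands. Sostdc1, a secreted antagonist of BMP and Wnt signals, was at 4.89, 4.03 and 4.45 in heterozygotes and at 4.92, 5.97 and 6.24 in wild-type glands, with a difference of -1.25 (SE 0.30), and of -0.46 without wild-type arrays 2 and 3. The transcription factors Klf7 and Irx5 were at -0.76 (SE 0.16) and -0.70 (SE 0.15). Klf7 had 3 further probe sets, which gave -0.36, -0.22 and -0.28. The zinc-finger gene Zfp40 was at -0.57 (SE 0.12) and the proline-rich Prr36 at -0.70 (SE 0.17). Kdm1a, a histone demethylase, was at -0.40 (SE 0.09), with 9.42, 9.35 and 9.40 in heterozygotes and 9.89, 9.63 and 9.84 in wild-type glands.

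**Figure D2:**
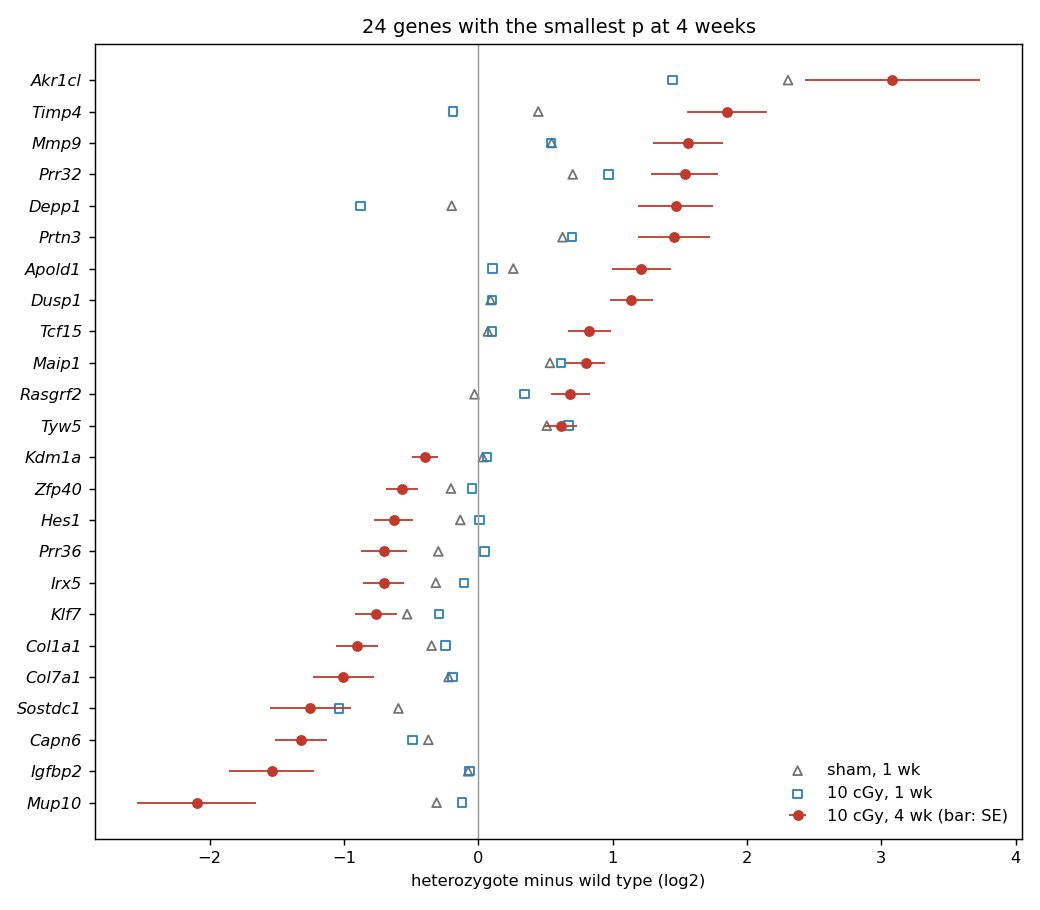
Genotype difference (horizontal axis, heterozygote minus wild type, log2) of the 24 genes with the smallest p at 4 weeks, as filled points with SE bars, beside the difference in sham glands (triangles) and 1 week after 10 cGy (squares). Tyw5 and Maip1 have similar values in all 3 conditions, whereas Dusp1 is at 1.14 at 4 weeks and at 0.09 and 0.10 in the others.

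Of these 24 genes, whose choice rests on the 4-week values, 21 had the same sign in sham glands and 19 at 1 week, where the share over all genes was 63.9% and 54.6%. The 3 genotype comparisons share no array.

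Dusp1 was the leading member of a list of glucocorticoid-responsive genes, which adrenal steroids induce through the receptor Nr3c1. A further member, Tat, was under the filter on low levels. All 16 tested members were higher in heterozygotes, with a median of 0.26, against -0.01 in sham glands and -0.04 at 1 week. Dusp1 alone passed limma, and 6 of the 16 were higher at an unadjusted p under 0.05, as were 2.39% of all genes. Lcn2 also stands in the neutrophil list. The mean of the list was 9.64, 9.72 and 9.61 in heterozygotes, against 9.17, 9.29 and 9.29 in wild-type glands. The 3 heterozygous values were above all other gland arrays, of which the highest was at 9.52. This mean includes Dusp1, and the list was chosen with earlier results of these data known. Tsc22d3, a mediator of glucocorticoid anti-inflammatory action, was at 9.39, 9.59 and 9.30 in heterozygotes and at 8.53, 8.97 and 8.49 in wild-type glands, a difference of 0.76 (SE 0.20, unadjusted p = 0.00180). At 1 week its difference was -0.91, the opposite sign. Per1, a clock gene with a glucocorticoid response, was at 0.67 (SE 0.22, unadjusted p = 0.00768), with 1 heterozygous array inside the wild-type range.

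The other 3 members with an unadjusted p under 0.05 were chosen for mention after their values were seen. Cebpd, a transcription factor of fat and acute-phase responses, was at 8.82, 8.67 and 8.57 in heterozygotes and at 8.11, 8.31 and 7.66 in wild-type glands. Fkbp5, a chaperone that restrains the glucocorticoid receptor, was at 7.84, 9.40 and 9.38 in heterozygotes and at 7.88, 8.17 and 7.95 in wild-type glands. In Fkbp5 heterozygous array 1 lay below all wild-type arrays while the other two were well above them, and the difference was 0.87 (SE 0.36). Angptl4, a lipase inhibitor, was at 0.27 (SE 0.11). At the low end the growth arrest gene Cdkn1c and the kinase Sgk1 were both at 0.07, and Nr3c1 itself was at 0.12 (SE 0.14). All 16 members stayed higher without wild-type arrays 2 and 3, with a median of 0.27.

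Immediate early genes, which respond within minutes to growth factors and stress, were divided. Of 20 tested members 8 were higher and 12 lower, with a median of -0.12. At an unadjusted p under 0.05 there were 2 higher members, Dusp1 and the vascular factor Klf2 at 0.52 (SE 0.20), and 5 lower members, against 2.39% higher and 3.56% lower of all genes. Egr1, a zinc-finger factor, was at 10.82, 9.98 and 9.56 in heterozygotes, against 11.56, 11.04 and 11.55 in wild-type glands, a difference of -1.26 (SE 0.36, unadjusted p = 0.00317). Fos was at 9.92, 9.07 and 8.77 in heterozygotes, against 10.59, 10.36 and 10.54 in wild-type glands, a difference of -1.24 (SE 0.47). Neither gene overlapped between the groups. Junb was at -0.61 (SE 0.17), Egr3 at -1.28 (SE 0.45) and Jund at -0.36 (SE 0.13), whereas Jun was at 0.15 (SE 0.29) and Atf3 at -0.20 (SE 0.26). In sham glands Egr1 and Egr3 were at -1.14 and -1.22, close to their 4-week values, whereas at 1 week they were at 0.06 and -0.28. Egr3, Fos, Jund and Klf2 were picked for mention after their values were seen.

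**Figure D3:**
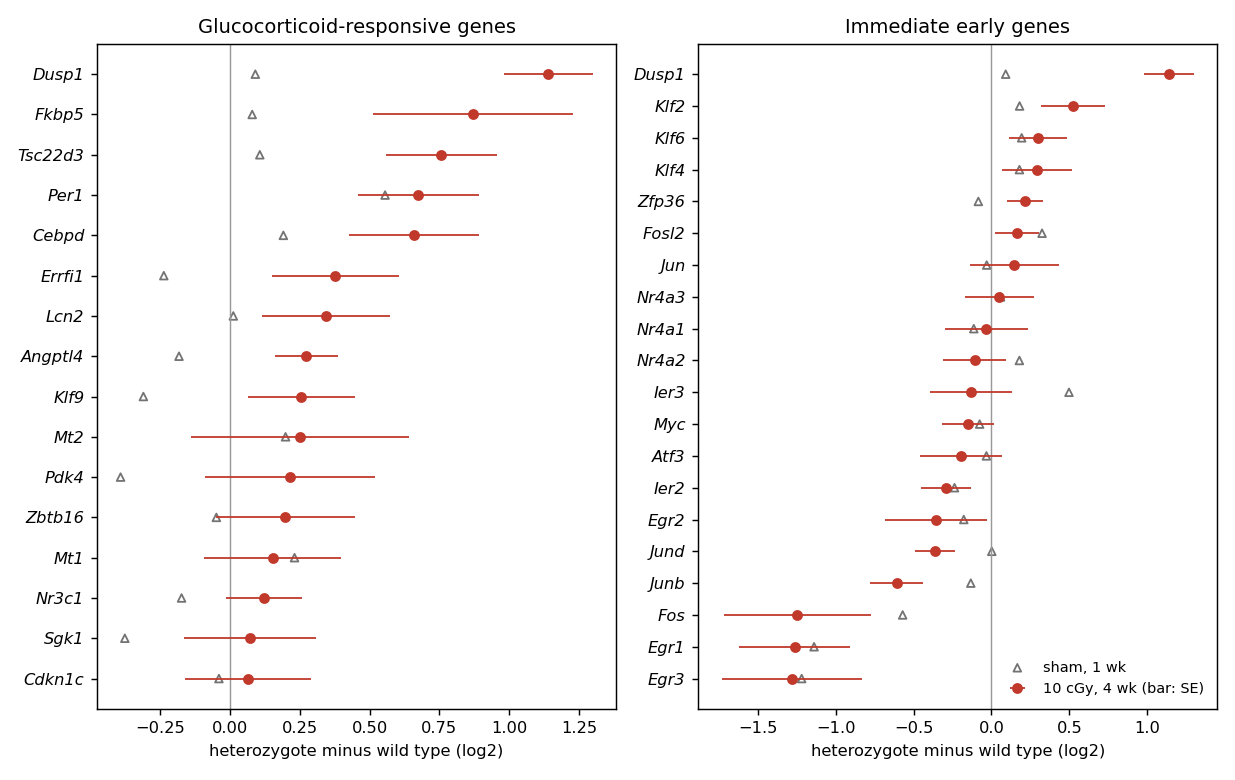
Genotype difference (horizontal axis, heterozygote minus wild type, log2) of the tested members of 2 gene lists at 4 weeks (filled points, bars are SE), with the sham difference as triangles. All 16 glucocorticoid-responsive genes lie right of 0 at 4 weeks, whereas the immediate early genes run from Dusp1 at 1.14 to Egr3 at -1.28.

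Epithelial markers were lower in heterozygotes in both layers of the gland, without a single member passing limma. Of 15 luminal markers 0 were higher and 15 lower, with a median of -0.35, against 0.10 in sham glands and 0.22 at 1 week, and 9 of the 15 had heterozygous values entirely below wild type, where 7.39% of all genes did. The luminal mean was 9.68, 9.43 and 9.69 in heterozygotes, against 9.91, 9.83 and 10.11 in wild-type glands. Krt8, a keratin of luminal cells, was at 12.44, 11.74 and 12.24 in heterozygotes and at 12.65, 12.59 and 12.84 in wild-type glands, a difference of -0.56 (SE 0.24, unadjusted p = 0.0346), and its 2 further probe sets gave -0.54 and -0.51. The tight junction protein Cldn4 was at -0.50 (SE 0.24), the keratin Krt19 at -0.51 (SE 0.25) and the adhesion proteins Cdh1 and Epcam at -0.33 (SE 0.17) and -0.24 (SE 0.19). All 15 stayed lower without wild-type arrays 2 and 3, with a median of -0.26.

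Of 16 basal and myoepithelial markers 0 were higher and 16 lower, with a median of -0.36, against -0.01 in sham glands and 0.06 at 1 week. The basal mean was 8.59, 8.52 and 8.46 in heterozygotes, against 8.91, 8.94 and 8.72 in wild-type glands. The 3 wild-type values were the highest of all 17 gland arrays. Cdh3, the placental cadherin of basal cells, was at -0.26 (SE 0.11, unadjusted p = 0.0318), the keratins Krt14 and Krt5 at -0.49 (SE 0.24) and -0.34 (SE 0.20), and the smooth-muscle actin Acta2 at -0.32 (SE 0.16). The basal integrin chain Itgb4 was at -0.41 (SE 0.19) and Trp63, the p63 factor of basal cells, at -0.45 (SE 0.36). The median was -0.43 without wild-type arrays 2 and 3, with 15 members lower. Several of these genes, Acta2 among them, are also made by vascular smooth muscle, whose part in the difference was not tested. The list of 20 blood vessel genes, which are markers of endothelium and pericytes, had a median of 0.04.

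Some regulators of luminal fate were lower as well, and others were near 0. Foxa1, a pioneer factor for the estrogen receptor, was at 9.29, 9.22 and 9.51 in heterozygotes, against 9.96, 9.56 and 10.72 in wild-type glands, a difference of -0.74 (SE 0.26, unadjusted p = 0.0120). Gata3, the factor of mature luminal cells, was at -0.59 (SE 0.27), with 9.51, 9.23 and 9.26 in heterozygotes and 10.04, 9.59 and 10.14 in wild-type glands. Neither overlapped between the groups. The progesterone receptor Pgr was at -0.48 (SE 0.28) with overlapping groups, and the estrogen receptor Esr1 at -0.16 (SE 0.17). In the list of 16 hormone receptors and targets 7 were higher and 9 lower, with a median of -0.15. Among 15 alveolar and luminal progenitor regulators 11 were lower, with a median of -0.23, led by Sox9, a factor of luminal progenitors, at 6.90, 6.98 and 7.07 in heterozygotes and 7.98, 7.35 and 7.70 in wild-type glands (difference -0.70, SE 0.21, unadjusted p = 0.00466). Kit, a receptor of luminal progenitors and mast cells, was at -0.47 (SE 0.21) and the cytokine Lif at -0.31 (SE 0.13), whereas Elf5 and Stat5a, which drive milk-forming cells, were at -0.02 (SE 0.30) and -0.01 (SE 0.27).

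Notch genes, which carry signals between touching cells and steer luminal fate, had 7 higher and 14 lower members out of 21, with a median of -0.14. The target gene Hes1 was at 7.75, 7.39 and 7.40 in heterozygotes, against 8.10, 8.10 and 8.24 in wild-type glands. The ligand Jag2 was at 6.38, 6.43 and 6.42 in heterozygotes, against 6.90, 6.80 and 6.94 in wild-type glands. Both were separated between the groups and had narrow spreads, with differences of -0.63 (SE 0.14, limma adjusted p = 0.312) for Hes1 and -0.47 (SE 0.13, limma adjusted p = 0.494) for Jag2. The target Heyl was at -0.37 (SE 0.16) and the inhibitor Numb at -0.29 (SE 0.13), so 4 of the 21 were lower at an unadjusted p under 0.05, as were 3.56% of all genes. Leaving out wild-type arrays 2 and 3 gave a list median of -0.07, with 14 of 21 lower, and Heyl was then at -0.09. The receptors Notch1, Notch2 and Notch3 were at -0.34 (SE 0.17), -0.11 (SE 0.22) and -0.21 (SE 0.18). Tgfa, an EGF receptor ligand, was at -0.65 (SE 0.19, unadjusted p = 0.00392) in a list of 12 EGF family genes whose median was -0.04. Of 26 Wnt genes 10 were higher and 16 lower. The receptors Fzd4 at 0.43 (SE 0.15) and Fzd7 at -0.43 (SE 0.19) were those with an unadjusted p under 0.05. Over all genes 2.39% were higher and 3.56% lower at that p.

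**Figure D4:**
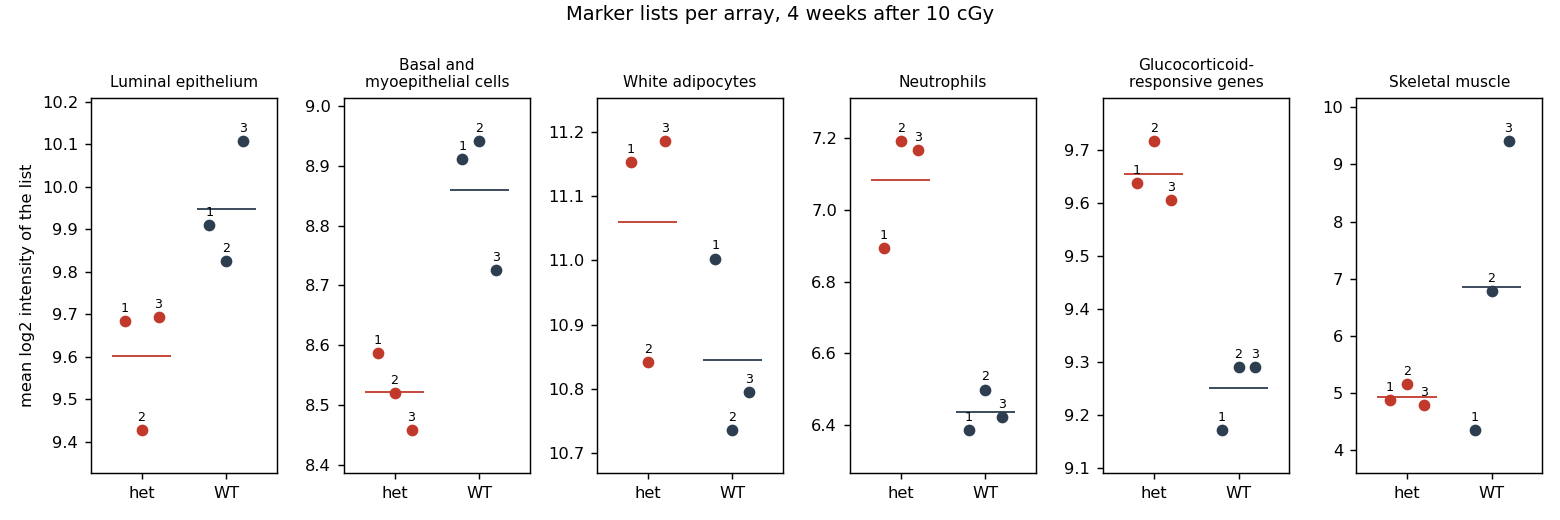
Mean level of 6 gene lists (vertical axis, log2 intensity, own scale in each panel) in each 4-week array, heterozygotes (het) left of wild type (WT), with repeat numbers beside the points and lines at group means. Luminal and basal means lie lower and neutrophil and glucocorticoid means higher in all 3 heterozygous arrays than in any wild-type array, and muscle is high in wild-type arrays 2 and 3.

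Most fat cell markers were higher in heterozygotes. Of 16 white adipocyte genes 14 were higher and 2 lower, with a median of 0.23, but the list means of 11.15, 10.84 and 11.19 in heterozygotes and 11.00, 10.74 and 10.80 in wild-type glands overlapped. The fatty acid transporter Cd36 was at 0.29 (SE 0.12, unadjusted p = 0.0357), the lipid droplet protein Cidec at 0.42 (SE 0.21) and adiponectin (Adipoq) at 0.20 (SE 0.10). Leptin (Lep) was at 9.35, 9.14 and 9.98 in heterozygotes and at 9.06, 9.17 and 7.84 in wild-type glands. The groups overlapped, and the difference of 0.80 (SE 0.34) was 0.43 without wild-type arrays 2 and 3. The list median was 0.09 without wild-type arrays 2 and 3, with 11 members higher. Brown fat genes had 1 higher and 7 lower members out of 8, with a median of -0.35 that was 0.11 without wild-type arrays 2 and 3, and Dio2, an enzyme that activates thyroid hormone in brown fat, was at -0.91 (SE 0.41).

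Among immune cell lists, neutrophil genes were the furthest from 0. All 6 tested members were higher, with a median of 0.55, and 6 further members, Elane, Mpo, Ngp, Camp, Cxcr2 and Mmp8, were under the filter on low levels and were not tested. The count rests on the 6 members left by the filter, so it supports nothing by itself. The list mean was 6.90, 7.19 and 7.17 in heterozygotes, against 6.39, 6.50 and 6.42 in wild-type glands. The 3 wild-type values were the lowest of all 17 gland arrays. Of the members under the filter, Elane was at 3.66, 3.60 and 3.87 in heterozygotes, against 3.86, 3.63 and 3.36 in wild-type glands. Mpo was at 3.49, 3.45 and 3.66 in heterozygotes, against 3.11, 3.39 and 3.46 in wild-type glands. The part of neutrophil content in the difference of Mmp9 and Prtn3 was not tested. Without wild-type arrays 2 and 3 the median was 0.61, with 5 of 6 higher. Besides Mmp9, S100a8, a calprotectin chain, was at 5.60, 5.93 and 6.18 in heterozygotes and at 4.81, 5.48 and 5.00 in wild-type glands, a difference of 0.81 (SE 0.29, unadjusted p = 0.0132), and its partner S100a9 was at 0.56 (SE 0.28). Csf3r, the receptor that drives neutrophil formation, was at 0.07 (SE 0.14). The members Lcn2 and Ltf, also made by mammary epithelium, were at 0.34 (SE 0.23) and 0.55 (SE 0.34).

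Plasma cell products were higher in heterozygotes, without passing limma. The IgA heavy chain Igha was at 9.55, 8.59 and 9.04 in heterozygotes, against 6.76, 7.10 and 6.77 in wild-type glands. The joining chain Jchain, which links IgA units, was at 8.53, 7.00 and 7.55 in heterozygotes, against 4.65, 5.82 and 5.14 in wild-type glands. Both were separated between the groups, with differences of 2.19 (SE 0.52, limma adjusted p = 0.390) and 2.49 (SE 0.80, limma adjusted p = 0.761), and 2 further Igha probe sets gave 2.06 and 1.93. In sham glands they were at 1.76 and 2.21, and at 1 week at 1.48 and -0.18. The IgM chain Ighm was at 0.64 (SE 0.72), and the plasma cell factors Prdm1, Irf4 and Xbp1 were at -0.38 (SE 0.22), -0.33 (SE 0.49) and 0.20 (SE 0.13), so the list of 10 had a median of 0.23. Of 8 mast cell genes 6 were higher, with a median of 0.44, while Kit was lower. Among the higher were the histamine-forming enzyme Hdc at 0.45 (SE 0.14, unadjusted p = 0.00706) and the protease Mcpt4 at 0.71 (SE 0.28). Hdc was dim, at 4.61, 5.11 and 4.58 in heterozygotes, against 4.43, 4.39 and 4.13 in wild-type glands. Leaving out wild-type arrays 2 and 3 gave a mast cell median of 0.29, with 6 of 8 higher, and leaving out wild-type array 3 alone gave 0.20.

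The arrays of both genotypes overlapped in the means of 4 other immune lists. Of 22 macrophage genes 18 were higher with a median of 0.15, of 15 T and NK cell genes 13 with a median of 0.25, of 10 MHC class II genes 8 with a median of 0.13 and of 30 interferon-induced genes 18 with a median of 0.03. No member of these 4 lists passed limma or had an unadjusted p under 0.05. Without wild-type arrays 2 and 3 the macrophage median was 0.09, with 12 of 22 higher (and -0.16 without array 3 alone), the interferon median -0.23, with 5 of 30 higher, and the MHC class II median -0.02, with 4 of 10 higher. At 1 week the same lists had medians of -0.63, -1.11, -0.97 and -0.40. There 1 wild-type array held high B cell RNA, with a B cell list mean of 8.80, whose part in these medians was not tested. Among 24 chemokines and cytokines, Cxcl12, the ligand of Cxcr4, was at 0.46 (SE 0.21) and Cx3cl1, a membrane-bound chemokine, at -0.49 (SE 0.21). In the B cell list Ebf1, which fat precursors make as well, was at 0.51 (SE 0.18) while the B cell antigen Ms4a1 was at 0.39 (SE 1.37) and Cd79b at 0.12 (SE 0.94).

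The skeletal muscle list had the median furthest from 0 of all lists. All 19 tested genes were lower, with a median of -1.98, and none had an unadjusted p under 0.05. Myh1, a fast myosin, was at 3.68, 4.55 and 3.09 in heterozygotes, against 3.60, 7.90 and 10.95 in wild-type glands, and the creatine kinase Ckm at 4.67, 4.90 and 4.58 in heterozygotes, against 4.83, 7.42 and 9.84 in wild-type glands. Wild-type array 1 was as low as the heterozygous arrays in both genes. Without wild-type arrays 2 and 3 the median was 0.21, with 16 of 19 higher, and Myh1 was at 0.18.

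Cell cycle and DNA damage genes did not separate the genotypes. Of 34 cell cycle genes 12 were higher and 22 lower, with a median of -0.19, against 0.56 in sham glands and 0.64 at 1 week, and 0 had an unadjusted p under 0.05. The list mean was 6.92, 8.18 and 7.99 in heterozygotes and 7.48, 7.71 and 8.39 in wild-type glands, so heterozygous array 1 was the lowest and the groups overlapped. The median was 0.14 without wild-type arrays 2 and 3. Mki67, the Ki-67 antigen of cycling cells, was at -0.51 (SE 0.59) and the replication clamp Pcna at 0.32 (SE 0.28). Among 26 p53 targets 10 were higher and 16 lower with a median of -0.07, and Cdkn1a, the p21 inhibitor, was at 0.02 (SE 0.14) and Mdm2 at -0.07 (SE 0.13), while the repair nuclease Ercc5 was at -0.35 (SE 0.15). The 26 DNA repair and checkpoint genes split 13 to 13.

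Hormone-induced products varied more between arrays than between genotypes. Tnfsf11, the RANK ligand that progesterone induces, was at 3.28, 9.90 and 9.91 in heterozygotes and at 5.22, 6.38 and 7.52 in wild-type glands. Heterozygous array 1 was thus the lowest of the 6 and the other two the highest, and the difference was 1.32 (SE 1.62). The casein Csn2 was at 12.34, 12.27 and 9.30 in heterozygotes and at 11.35, 12.10 and 11.87 in wild-type glands, and the whey protein gene Wap at 8.07, 8.91 and 4.50 in heterozygotes and at 8.99, 6.77 and 10.98 in wild-type glands. Here heterozygous array 3 was the low one. Of 13 milk protein genes 5 were higher and 8 lower, with a median of -0.09, and none had an unadjusted p under 0.05. Tnfsf11, Csn2 and Wap were picked for mention after their values were seen.

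Of 20 oxidative defence genes 14 were higher, and the list median was 0.17. The glutathione peroxidase Gpx1 was at 12.64, 12.63 and 12.65 in heterozygotes, against 12.40, 12.52 and 12.14 in wild-type glands, a difference of 0.29 (SE 0.10, unadjusted p = 0.0112). The extracellular superoxide dismutase Sod3 was at 0.66 (SE 0.26) and the glutathione transferase Gsta4 at 0.39 (SE 0.17). These 3 and Srxn1, which repairs oxidised peroxiredoxins, did not overlap between the groups. Over all genes the heterozygous values lay entirely above for 5.02% and entirely below for 7.39%. Nqo1 and Hmox1, typical NRF2 targets, were at 0.20 (SE 0.21) and 0.21 (SE 0.37). Of 27 respiratory chain genes 23 were higher, by a median of 0.05. Among 22 hypoxia and glycolysis genes, split 11 to 11, the vasodilator Adm was at 0.57 (SE 0.24) and the mitophagy receptor Bnip3 at 0.38 (SE 0.17). Of 18 clock genes, Bhlhe40 was at -0.64 (SE 0.22) and Arntl at -0.29 (SE 0.13), opposite in sign to Per1, and the list median was 0.01. The endothelial tight junction gene Cldn5 was at 0.66 (SE 0.30) in the blood vessel list. Of 24 cholesterol and fatty acid synthesis genes 7 were higher, with a median of -0.11, of 23 heat shock and unfolded protein genes 14, with 0.03, and of 17 fibroblast genes 9, with 0.09. The 7 Schwann cell genes had a median of -0.02, the 9 skin genes -0.04 and the 4 lymphatic genes -0.16, with the secreted glycoprotein Reln at -0.92 (SE 0.42, unadjusted p = 0.0445), and the 1 tested red blood cell gene was at 0.01.

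Further list medians moved by over 1.5 times or changed sign when wild-type arrays 2 and 3 were left out. The matrix protease median was then 0.25, that of hormone receptors and targets -0.23 and that of milk proteins -0.15. Wnt genes were at -0.04, EGF family genes at -0.01 and insulin-like growth factor genes at -0.10. Respiratory chain genes were at 0.14, heat shock genes at 0.08, blood vessel genes at 0.16 and Schwann cell genes at 0.20. Chemokines and cytokines were at -0.08, where all 6 arrays gave 0.04. Hypoxia and clock genes were each at 0.03, DNA repair genes at 0.02, skin genes at -0.10 and the red blood cell gene at -0.14.

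**Figure D5:**
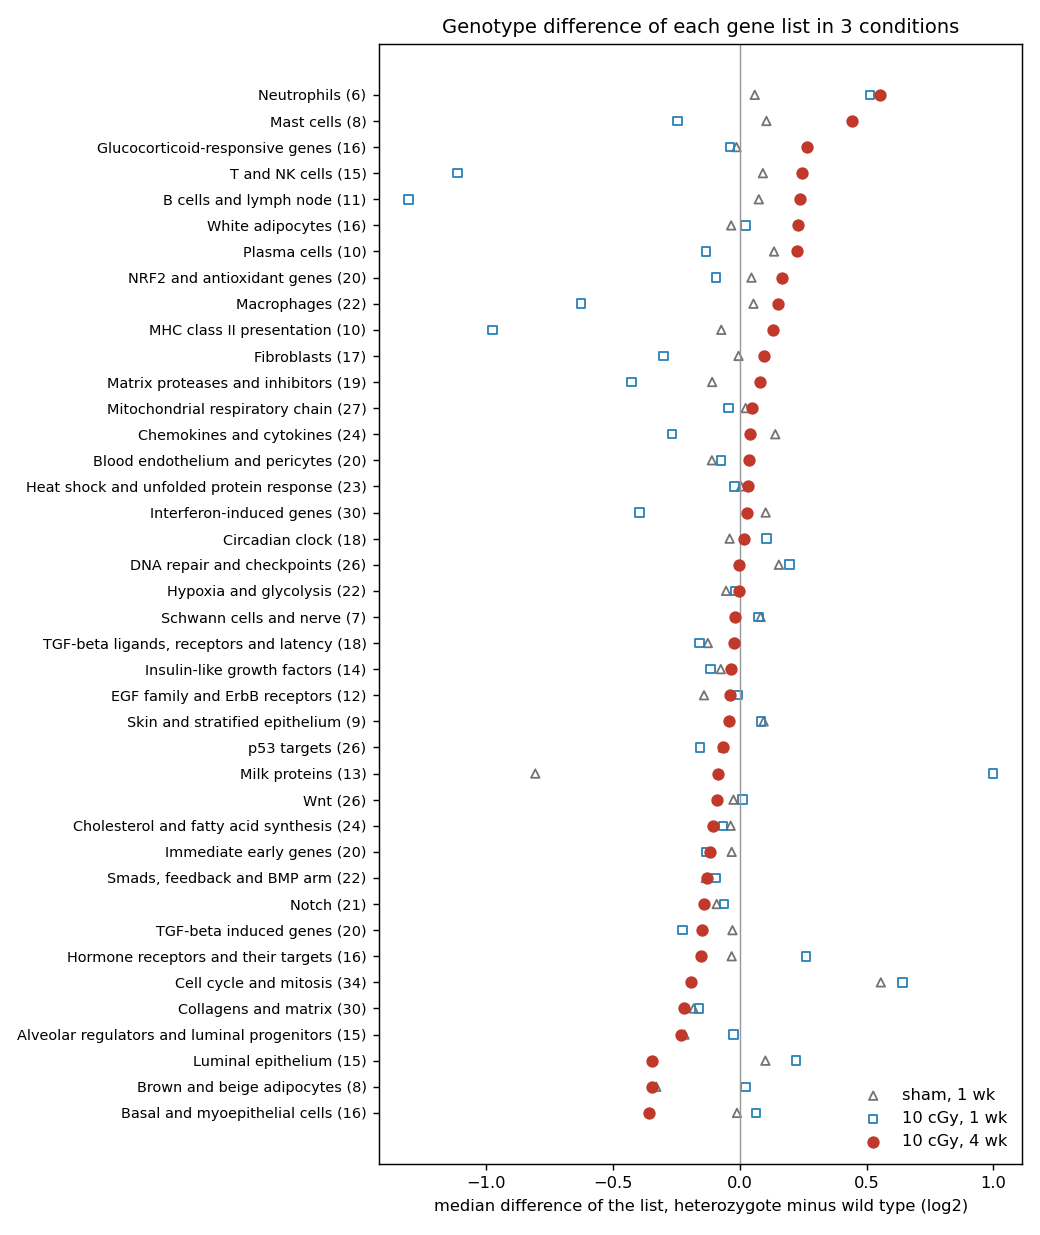
Median genotype difference (horizontal axis, heterozygote minus wild type, log2) of 40 gene lists with at least 6 tested members, named with their number of tested genes, at 4 weeks (filled), in sham glands (triangles) and 1 week after 10 cGy (squares). Luminal and basal lists sit at -0.35 and -0.36 at 4 weeks, and the muscle list, at -1.98, is left out for scale.

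Whether the genotype difference at 4 weeks was itself unlike that in the other conditions was tested with interaction terms. Against sham glands 0 genes (0%) passed limma, and 231 (1.78%) had an unadjusted p under 0.05. Against glands 1 week after 10 cGy 0 genes (0%) passed and 670 (5.18%) had an unadjusted p under 0.05. The smallest adjusted p-values of limma were 1.00 and 0.389. A difference past the threshold at 4 weeks is therefore not shown to be absent in the other conditions.

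Dusp1 had an interaction of 1.05 against sham glands (unadjusted p = 0.000353) and of 1.04 against 1 week (unadjusted p = 0.000636). Capn6 had one of -0.95 against sham glands (unadjusted p = 0.00366). Depp1 had an interaction of 1.67 against sham glands and 2.35 against 1 week, and Tsc22d3 one of 1.66 against 1 week. Papln, a matrix protein related to papilin of flies, had one of -1.44 against sham glands. That came from -0.52 at 4 weeks and 0.92 in sham glands. Papln was dim at 4 weeks, at 3.77, 4.24 and 4.66 in heterozygotes, against 5.06, 4.56 and 4.61 in wild-type glands. Plch2, a phospholipase C, and Jag2 had interactions of -1.15 and -0.85 against 1 week. In the luminal list 4 of 15 genes had an unadjusted p under 0.05 for the interaction with sham glands, against 1.78% of all genes. Among these 4 were Krt19 at -1.12 and Krt8 at -0.84. In the glucocorticoid list 5 of 16 genes did for the interaction with 1 week, against 5.18% of all genes. Tyw5 and Maip1 had interactions of 0.10 and 0.26 against sham glands.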

How the data were processed

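Mammary gland RNA was measured on 1-colour expression arrays, 17 in all, from 80 ng of total RNA each. Per the submitters' processing notes the authors made the deposited probe-set intensity values with RMA (version not given in the sources used here). These are on a linear scale, and log2 was taken here. Of 45101 probe sets, 34958 had 1 gene symbol, 932 several and 9211 none, and 99.4% of gene identifiers were found in RefSeq. Each of 18194 genes was represented by 1 probe set, that of highest mean in the glands. Genes under the 40th percentile of mean level (4.15, log2) were left out, which left 12945. limma 3.58.1 in R 4.3.3 was fitted to all 17 arrays as 6 groups with a variance trend (11 residual degrees of freedom) and Benjamini-Hochberg adjustment over all tested genes, and was checked on simulated data. The values of the 48 tumour arrays, which the authors deposited as log2 from RMA, were not used here.

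Named genes were drawn from Tgfb1, the 12 with the smallest p in each direction, the 3 with the smallest p of each of 43 gene lists, and the 5 in each direction of both interactions. Others were picked after their values were seen, as typical members of a list or for their values. The members and lists were chosen with earlier results of these data known, and of 884 list entries 750 were tested, 64 being not analysed here and the rest under the filter. Alternatives were another filter, probe-set rule, normalization, variance model, covariates and block, the 6 arrays alone, and fits without single arrays or arrays rich in muscle or B cell RNA.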

Additional observations from a re-analysis of the deposited data

How the results depend on the processing

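The count of 2 genes at 4 weeks depended on the processing. It was 3 with the mean of all probe sets of a gene and 2 without the variance trend. It was 0 with no filter on low levels (918 genes at an unadjusted p under 0.05 in limma), 1 after a further quantile normalization, 0 with muscle and B cell levels as covariates (541), and 1 in the 6 arrays alone. With the repeat number as a replicate block it was 6, and 0 in the 6 arrays alone with that block. Deviations of same-numbered arrays had correlations of 0.268, -0.055 and 0.035, and those of differently numbered arrays ran from -0.293 to 0.264. With 3 arrays of each genotype these values cannot settle whether the numbers pair the samples. Fits without 1 array gave 0 to 3 genes. In alternatives chosen after seeing the data it was 0 without the 4 arrays richest in muscle RNA (580), 0 without the 3 richest in B cell RNA (888) and 2 without wild-type arrays 2 and 3, where the lone wild-type array is assumed to vary like the other groups. The cause of these shifts was not tested. Beside Dusp1, Capn6 and Akr1cl, calls appeared for Timp4 (adjusted p = 0.0307 with the block, 0.0146 without heterozygous array 1), Mmp9 (0.0363 with the mean of probe sets), and with the block for Col1a1 (0.0307), Mup10 (0.0292) and Prr32 (0.0455). Myh1 reversed, to 0.18 without wild-type arrays 2 and 3. Both interactions stayed at 0 genes in each alternative, except 1 gene against 1 week with the replicate block. Of the list medians, 698 alternative values moved by less than the spread between arrays and 33 by more. The number of arrays, 3 of each genotype, limits what can be called.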
